A study of Mus musculus with 24 samples.

Results

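The response of mouse calf muscle to loss of its nerve was compared between day 3 and day 14 in wild type animals. The comparison is a difference of differences, called the day difference here: denervated minus control at day 14, less denervated minus control at day 3. It rests on 12 of the 24 samples of the study, namely all samples of wild type mice, 3 in each of 4 groups. All 11317 genes measured were sorted by it. A transient gene was called changed at day 3 and not at day 14, a late gene at day 14 and not at day 3, and in both cases the day difference itself had to be called. Sustained genes were called on both days in the same direction, and crossing genes on both days in opposite directions.

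Motor nerves keep a muscle fibre active, and that activity holds down genes that are switched on again when the nerve is lost, among them the subunits of the foetal acetylcholine receptor. A denervated muscle shrinks as ubiquitin ligases such as MuRF1 and atrogin-1 tag proteins for the proteasome and as lysosomes degrade others. Myogenic factors, class II histone deacetylases and Runx1 are known to take part in this programme, and macrophages enter the muscle and the degenerating nerve stump in the early days.

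The wild type mice were of the C57/Bl6 strain and 6 months old, and the tissue was triceps surae, the muscle group of the calf. In the denervated groups a piece of the sciatic nerve had been removed on 1 side, 3 or 14 days before the muscle was taken. The control groups were littermates that had no operation and were kept in parallel, so surgery and nerve loss cannot be told apart. The other 12 samples came from MuRF1 knockout mice that were handled in the same way. RNA was read on Illumina BeadChips with 1 colour, and levels are given as normalised log2 intensities of the brightest probe of a gene. Nothing in the labels ties each sample to an animal of its own, and the p-values therefore cover only the spread between these samples, which may be technical. In bulk muscle, fewer cells of a type and less RNA per cell cannot be told apart.

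Raw median intensities of the wild type arrays ran from 130.4 to 199.8, and the number of probes detected rose from 15693 to 16058 in day 3 controls to 17682 to 18496 in day 14 denervated muscle. Within a group, arrays correlated at 0.9873 to 0.9928 over the genes, a description only. The array headers name no chip, so the day of sampling and any batch of arrays cannot be told apart. The 12 muscle fibre markers were all measured, and their summed level was 18.3 to 18.88 on the log2 scale in the 12 samples, the highest of the 12 cell type lists examined. Lists differ in probes and in number of genes, so this order of sums does not measure cell content. A probe that all arrays of 1 group missed has a fold with only a lower limit, written "at least": the other group's mean against, on each array, the higher of the probe's own signal and the dimmest detected signal. No fold is given where neither group detected the probe.

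At a Benjamini-Hochberg adjusted p under 0.05 in limma, 4242 genes (37.5% of those tested) were called at day 3, 2258 (20%) higher and 1984 (17.5%) lower in denervated muscle. At day 14, 4694 genes (41.5%) were called, 2591 (22.9%) higher and 2103 (18.6%) lower. The day difference was called for 1546 genes (13.7%), of which 844 (7.46%) had a higher and 702 (6.2%) a lower response at day 14. Its size was at least 2-fold in 711 genes. The median log2 change over all genes was 0.01 at day 3 and 0.05 at day 14.

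The balance of directions depended on the scaling. With each array centred on its median in place of the quantile normalisation, the day difference was called for 383 genes higher and 902 lower, day 3 for 3160 higher and 968 lower, and day 14 for 2902 higher and 1685 lower. Transient genes were then 398 up and 60 down, late genes 192 up and 262 down, sustained genes 1794 up and 681 down and crossing genes 86 and 12. That scaling moved the median of all genes to 0.188 at day 3, 0.121 at day 14 and -0.0757 for the day difference.

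Sustained genes were the largest class, with 2554 genes (22.6%), 1342 (11.9%) up and 1212 (10.7%) down. The day 14 change of a sustained gene was a median 1.064 times its day 3 change on the log2 scale, with quartiles of 0.790 and 1.415. Among them the day difference was called for 349 genes, which were weaker at day 14 in 76 rises (0.672% of genes) and 61 falls (0.539%) and stronger in 148 rises (1.31%) and 64 falls (0.566%). Transient genes numbered 465 (4.11%), 260 (2.3%) up and 205 (1.81%) down, and late genes 590 (5.21%), 356 (3.15%) up and 234 (2.07%) down. Another 115 genes (1.02%) crossed, 57 (0.504%) from up to down and 58 (0.513%) from down to up. Genes called on 1 day without a called day difference could not be placed. They were 599 (5.29%) up and 509 (4.5%) down at day 3, and 835 (7.38%) up and 600 (5.3%) down at day 14. The day difference alone was called for 27 genes (0.239%), and 5023 genes (44.4%) were called in none of the 3 comparisons.

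**Figure D1:**
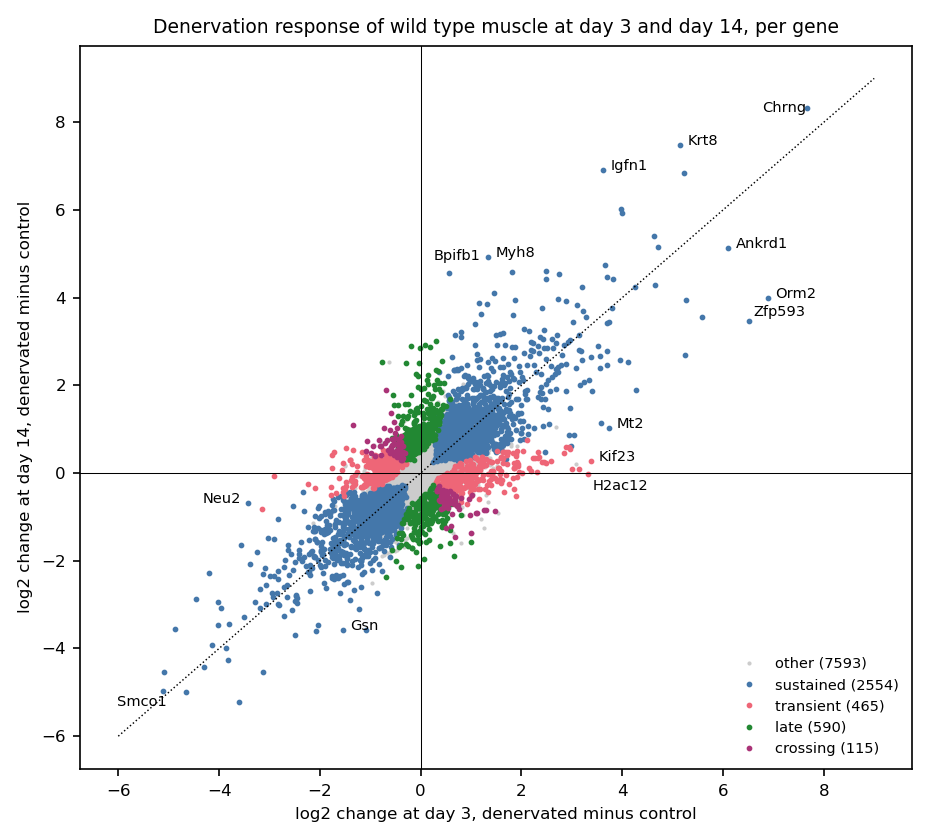
Each point is 1 of the 11317 genes; the horizontal axis is its log2 change at day 3 and the vertical axis its log2 change at day 14, denervated minus control, with equal changes on the dotted line and the classes in colour. The 2554 sustained genes lie along the dotted line, the 465 transient genes along the horizontal axis and the 590 late genes along the vertical axis.

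Trim63, which encodes MuRF1 and is the gene disrupted in the other mice of the study, was transient in wild type muscle. Its level was 9.05, 9.67 and 9.65 in day 3 controls and 11.37, 10.73 and 11.04 in denervated muscle of that day. At day 14 it was 10.29, 10.27 and 10.36 in controls and 10.28, 9.95 and 10.04 in denervated muscle. All 3 denervated samples lay above all 3 controls at day 3, whereas at day 14 the groups overlapped and the denervated samples lay at the lower end. The log2 change was 1.59 at day 3 (limma adjusted p = 1.8e-07) and -0.22 at day 14 (adjusted p = 0.33), a day difference of -1.80 ± 0.24 (SE, adjusted p = 5.3e-05). Part of that difference lay in the controls, where Trim63 was 0.85 higher at day 14 than at day 3 (adjusted p = 0.0029). In the knockout arrays the Trim63 probe read 4.83 to 5.86 on the same scale, below every wild type sample.

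The promoters of 5 genes that carry the time courses described below are shown as RefSeq gives them on GRCm38.p6, each from 250 bases before the gene's start to 30 bases after it. Capitals mark matches on either strand to a short motif linked to the gene's class of regulation. CAGCTG, an E-box bound by myogenic factors, is marked in the sustained gene Chrng. TGCNCNC, with N for any base, is marked in Mt2 and Mt1, which fell back by day 14. It is a loose form of the core of the metal response element. GTAAACA, a FoxO element, is marked in the transient gene Trim63. TTTGAA and CCAAT, elements of cell division genes, are marked in the transient gene Kif23.
Chrng, chromosome 1, chr1:87205561-87205840, plus strand: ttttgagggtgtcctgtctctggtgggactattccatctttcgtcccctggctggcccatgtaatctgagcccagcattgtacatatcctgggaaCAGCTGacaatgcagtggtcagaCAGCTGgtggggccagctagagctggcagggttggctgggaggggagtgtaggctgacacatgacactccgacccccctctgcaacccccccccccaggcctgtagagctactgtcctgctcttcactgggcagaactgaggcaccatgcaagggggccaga
Mt2, chromosome 8, chr8:94172368-94172647, plus strand: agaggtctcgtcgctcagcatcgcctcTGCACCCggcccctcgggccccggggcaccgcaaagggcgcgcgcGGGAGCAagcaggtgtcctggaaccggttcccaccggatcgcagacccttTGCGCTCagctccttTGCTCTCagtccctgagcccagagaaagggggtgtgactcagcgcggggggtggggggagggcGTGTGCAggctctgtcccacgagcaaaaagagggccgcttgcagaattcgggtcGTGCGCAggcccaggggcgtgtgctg
Mt1, chromosome 8, chr8:94178839-94179118, plus strand: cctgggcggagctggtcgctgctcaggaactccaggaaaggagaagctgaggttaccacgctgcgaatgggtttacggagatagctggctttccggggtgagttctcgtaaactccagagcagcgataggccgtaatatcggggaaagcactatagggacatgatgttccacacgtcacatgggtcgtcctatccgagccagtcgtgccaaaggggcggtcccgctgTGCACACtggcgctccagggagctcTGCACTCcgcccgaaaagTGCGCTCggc
Trim63, chromosome 4, chr4:134314870-134315149, plus strand: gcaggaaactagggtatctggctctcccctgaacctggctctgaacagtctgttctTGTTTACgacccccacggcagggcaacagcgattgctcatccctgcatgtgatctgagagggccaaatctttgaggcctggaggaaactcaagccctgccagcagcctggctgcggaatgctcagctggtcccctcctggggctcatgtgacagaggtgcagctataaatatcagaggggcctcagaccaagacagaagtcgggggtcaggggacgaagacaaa
Kif23, chromosome 9, chr9:61946770-61947049, minus strand: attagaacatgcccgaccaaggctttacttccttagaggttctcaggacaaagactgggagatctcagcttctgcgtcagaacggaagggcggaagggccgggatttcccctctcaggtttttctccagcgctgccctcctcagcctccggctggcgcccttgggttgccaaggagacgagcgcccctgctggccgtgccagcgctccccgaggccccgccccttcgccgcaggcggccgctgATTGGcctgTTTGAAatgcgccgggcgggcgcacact

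A window of this length was found in the reference table for 9145 of the 11317 genes tested. The E-box CAGCTG was found in 13.9% of those windows, in 14.3% of sustained rising genes and in 18% of late rising genes. TGCNCNC, the loose form of the metal response core, is short and common, in 56.2% of windows. The FoxO element GTAAACA is rare, in 2.49% of windows, 4.23% of transient rising genes and 1.63% of sustained rising genes. CCAAT was found in 37.3% of windows and 47.9% of transient rising genes, and TTTGAA in 11.8% and 15%. In the proliferation list described below, 16 of 19 windows (84.2%) held CCAAT and 5 (26.3%) TTTGAA. These matches describe letters in a window and do not show binding.

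Among the sustained rises with the largest smaller change of the 2 days, Chrng, the gamma subunit of the foetal acetylcholine receptor, led. Its level was 5.09, 4.64 and 4.75 in day 3 controls and 12.18, 12.72 and 12.61 in denervated muscle, and at day 14 it was 5.89, 6.29 and 5.32 in controls and 14.30, 13.98 and 14.20 in denervated muscle. Every denervated sample was far above every control on both days, and the day 14 denervated samples were above those of day 3. No day 3 control array detected the probe, so that rise was at least 102-fold, and the rise at day 14 was 320-fold. The day difference was 0.65 and was not called (adjusted p = 0.14). Controls were called higher at day 14 (limma adjusted p = 0.0033), though with day 3 controls undetected the rise is only known to be at least 1.004-fold. A second, dimmer probe of Chrng changed by 1.115 and 2.334, and its day difference of 1.22 was called (limma adjusted p = 0.0032).

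Chrnd, the delta subunit, rose at least 9.60-fold at day 3 and at least 49.4-fold at day 14, and its day difference of 1.95 was called (adjusted p = 6e-06). Denervated levels were 9.21, 8.79 and 9.28 at day 3 and 11.37, 11.20 and 11.22 at day 14, with no overlap between days. Chrna1 and Chrnb1, the subunits shared by foetal and adult receptors, rose on both days with no day difference called, Chrna1 at least 3.01-fold and at least 2.76-fold, Chrnb1 4.87-fold and 4.94-fold. Chrne, the subunit of the adult receptor, was instead a transient fall: controls of 8.26, 8.59 and 8.55 stood against 7.11, 6.83 and 7.35 in denervated muscle at day 3, and 8.33, 8.58 and 8.18 against 7.96, 8.2 and 8.43 at day 14. The groups were apart at day 3 and overlapped at day 14 (log2 change -1.37 and -0.16, day difference 1.21, adjusted p = 0.0035).

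Of the 19 measured genes of the acetylcholine receptor and synapse, 10 rose and 3 fell at day 3 and 11 rose and 1 fell at day 14, with a median log2 change of 0.60 and 0.70. Their day difference was called higher in 4 and lower in 1. The kinase Musk, which gathers receptors at the synapse, rose at least 11.3-fold and at least 11.6-fold, and its partner Lrp4, the agrin receptor, by 0.60 and 1.46 on the log2 scale (day difference adjusted p = 0.018). Ncam1, the neural cell adhesion molecule that denervated fibres display, rose by 2.89 and then 3.91 (adjusted p = 0.0066). Chrna9, an acetylcholine receptor subunit best known from the inner ear, moved the other way. Its rise of 5.24 at day 3 had shrunk to 2.68 at day 14, with denervated samples of 11.87, 11.52 and 11.87 against 9.16, 8.64 and 8.95.

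Of 16 measured regulators of the denervation programme, 8 were sustained rises. Runx1, a transcription factor that preserves denervated fibres in mice, rose at least 16.4-fold at day 3 and 42.3-fold at day 14 (day difference 0.77, adjusted p = 0.071). Myog and Myod1, the myogenic factors, were undetected in controls and rose at least 6.46-fold and at least 4.21-fold at day 3 and at least 4.74-fold and at least 5.12-fold at day 14. Myf6, a further member of that family, rose by 2.48 and 2.59 on the log2 scale. Hdac4, the class II deacetylase that links nerve loss to Myog, rose further with time, from 8.83, 9.03 and 8.94 in controls to 10.92, 10.09 and 10.28 at day 3 and from 8.81, 9.35 and 8.74 to 12.06, 11.97 and 12.29 at day 14. Its denervated samples of the 2 days did not overlap (day difference 1.65, adjusted p = 0.0015). In all, 9 of the regulators rose and 1 fell at day 3, and 9 rose and 3 fell at day 14; Hdac5, another class II deacetylase, was a sustained fall (-1.02 and -0.57). Mef2c crossed, from 0.54 to -0.66, in a gene whose controls were 1.26 lower at day 14. Camk2b was a late rise and Camk2g a late fall.

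Other leading sustained rises were structural or stress genes. Krt8 and Krt18, keratins that pair in simple epithelia, rose on both days and more at day 14. Krt8 was not detected in any control array, and its denervated levels were 10.12, 9.38 and 9.91 at day 3 and 13.32, 12.29 and 12.67 at day 14, at least 15.7-fold and at least 140-fold over controls (day difference 2.35, adjusted p = 0.00032). Krt18 went from a log2 change of 5.23 to 6.84 (adjusted p = 0.031). Ankrd1, a titin-binding stress gene, had the larger rise early, 68.8-fold at day 3 and 35.3-fold at day 14 (day difference adjusted p = 0.0068). Its denervated samples read 14.41, 14.46 and 14.83 at day 3 and 14.25, 13.99 and 14.13 at day 14, a log2 difference of -0.45. More of the day difference lay in the controls, which were 0.52 higher at day 14 (limma adjusted p = 0.036). Rrad, a small GTPase that restrains calcium channels, rose by 4.72 and 5.15 with no day difference called.

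Smco1 led the sustained falls. Its product is a coiled-coil membrane protein, and it had levels of 11.54, 11.77 and 11.59 in day 3 controls against 6.38, 6.61 and 6.54, and 11.31, 11.44 and 11.36 against 6.37, 6.44 and 6.41 at day 14. The denervated samples of both days sat together far below every control, with changes of -5.12 and -4.97. Aqp4, the water channel of fast fibres, fell at least 20.3-fold at day 3 and 31.8-fold at day 14. Its dimmer probes changed less, by -1.69, -1.09 and -0.18 on the log2 scale at day 3 and by -1.13, -0.39 and 0.15 at day 14. Cntnap2, a neurexin-family adhesion protein, fell at least 19.1-fold and at least 18-fold. Lrrc38, a subunit of large potassium channels, fell by 4.30 and 4.42 and Ramp1, a subunit of the receptor for calcitonin gene-related peptide, by 3.87 and 3.98 on the log2 scale. Fgfbp1, a carrier of fibroblast growth factors, fell at least 13.2-fold and 15.2-fold.

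Energy metabolism fell early and stayed down. Of 45 measured genes of oxidative phosphorylation, 38 fell at day 3 and 35 fell and 1 rose at day 14; the median log2 change was -0.74 and -0.77, and 34 of the genes were sustained falls. The day difference was called by limma for 0 of the 45, against 13.7% of all genes, and 2 had an unadjusted p under 0.05. Sdhb, a subunit of complex II, fell by 1.09 and 1.42 and Cox7a1, the muscle form of a cytochrome oxidase subunit, by 1.59 and 1.88. Of 20 genes of glycolysis and glycogen, 12 fell at day 3 and 14 at day 14. The glucose transporter Slc2a4 (-1.32 and -2.67, adjusted p = 0.002) and the bisphosphatase Fbp2 (-2.07 and -3.60, adjusted p = 0.0033) fell further at day 14.

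In the citric acid cycle 14 of 18 genes fell at day 3 and 13 at day 14. Suclg1 and Idh3g had fallen further by day 14, while Idh2, the largest fall of the list at day 3, eased from -3.12 to -2.30 (adjusted p = 0.033), a call that was not made under median centring. Fatty acid uptake and oxidation had 18 falls of 24 at day 3 and 19 at day 14. Cpt1b, Fabp3, Echs1 and Decr1 had eased by day 14, by 0.68 to 0.89 on the log2 scale, but none of the 4 day differences was called under median centring. Perm1, a muscle coactivator of mitochondrial genes, fell from 12.26, 12.70 and 12.73 to 7.78, 7.51 and 7.80 at day 3 and from 13.17, 13.25 and 13.29 to 9.85, 9.55 and 9.67 at day 14. Its denervated samples of day 14 all lay above those of day 3, yet far below every control (day difference 1.32, adjusted p = 0.0016). Ppargc1a, the coactivator PGC-1 alpha, fell by 1.32 and 1.5.

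Genes whose rise grew with time included 2 of 8 measured contractile genes of developing muscle, against 1.31% of all genes. The list as a whole did not grow: its median log2 change was 1.26 at day 3 and 1.06 at day 14. Of the 8, 5 rose and 2 fell at day 3, and 5 rose and 3 fell at day 14. Rises were 20% and 22.9% of all genes on these days, and falls 17.5% and 18.6%. Myh8, the perinatal myosin heavy chain, read 7.37, 8.06 and 7.84 in day 3 controls and 8.83, 9.36 and 9.09 in denervated muscle, then 7.54, 7.77 and 7.61 against 12.25, 12.75 and 12.69 at day 14. Denervated samples were above controls on both days and the day 14 samples far above those of day 3, a 2.52-fold and a 30.3-fold rise (day difference 3.59 ± 0.44, adjusted p = 2.8e-05). Tnnt2, the troponin T of heart and embryonic muscle, went from a log2 change of 1.45 to 4.11 (adjusted p = 5.3e-07). Myl4, the embryonic light chain, rose by 2.16 and 2.67 with no day difference called, and Actc1, the cardiac actin of foetal muscle, fell by 2.83 and 2.42.

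Igfn1, an immunoglobulin-like protein of the Z-disc region, went from 7.97, 8.30 and 7.39 in controls to 12.11, 11.30 and 11.14 at day 3, and from 7.80, 8.77 and 8.24 to 15.04, 15.30 and 15.24 at day 14. Its 12.4-fold rise thus became 121-fold (day difference 3.30, adjusted p = 0.00046). Emb, the cell adhesion protein embigin, went from a 3.52-fold to a 23.8-fold rise (adjusted p = 0.00044). Bpifb1, a secreted protein of airway and oral epithelia, was sorted here as well. It was detected on no array of either day 3 group or of the day 14 controls, and denervated levels at day 14 were 9.17, 9.60 and 9.52, at least 13.9-fold over controls. A day 3 response cannot be read for it, although the fit called one.

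Falls that grew with time had genes of connective tissue among them. Timp4, an inhibitor of matrix proteases, read 9.12, 9.26 and 8.94 in day 3 controls against 7.58, 8.21 and 8.25, and 9.44, 9.76 and 9.14 against 5.37, 6.15 and 6.06 at day 14. The groups were apart on both days and the gap was wider at day 14, 12-fold against 2.13-fold (day difference -2.50, adjusted p = 0.00043). Gsn, gelsolin, an actin-severing protein rich in fibroblasts, fell 2.92-fold and 12-fold (adjusted p = 0.014), and Ptx3, a soluble pattern recognition protein, fell 2.34-fold and at least 6.23-fold. The thymidine kinase Tk1 was called in this class, but its 2 probes disagreed at day 3, the brighter at -0.87 and the dimmer at 1.84.

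Some markers of connective tissue and vessel cells fell as well. Of 11 markers of fibroblasts and adipogenic progenitors, Gsn among them, 2 rose and 2 fell at day 3 and 6 fell at day 14. Of all genes 20% rose and 17.5% fell at day 3, and 22.9% and 18.6% at day 14, so the day 3 counts were near those shares. Only 1 of the 11, Gsn, was sorted as a fall that grew, and 0 of 27 measured extracellular matrix genes. Under median centring 3 rose and 1 fell at day 3, and 1 rose and 5 fell at day 14. The summed log2 level of these markers was 14.93 to 15.21 in day 3 and 14.69 to 14.92 in day 14 denervated muscle, against 15.25 to 15.42 and 15.38 to 15.5 in controls. Of 15 endothelial markers 8 fell at day 3 and 10 at day 14, and the day difference was called lower for 3 of them, Ly6c1, Eng and Esam. Under median centring 1 of the 15 fell and 1 rose at day 3, and 10 fell at day 14. Their summed level was 14.66 to 14.8 and 13.79 to 14.23 in denervated muscle, against 15.09 to 15.2 and 14.78 to 14.95. Their part in the falls above was not tested.

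Genes whose rise shrank without ending were led by Zfp593, a nucleolar zinc finger protein. Its level rose from 5.57, 6.27 and 5.86 to 12.63, 12.39 and 12.21 at day 3 and from 5.98, 5.53 and 5.73 to 9.21, 9.18 and 9.27 at day 14. The 3 groups of values, controls, late and early, did not touch, and a 91.2-fold rise became 11.1-fold (day difference -3.04 ± 0.24, adjusted p = 1.9e-07). A second probe of Zfp593 rose less and equally on both days (1.80 and 1.64), so the 2 probes do not give the same time course. Orm2, an acute phase glycoprotein, was detected in no control and rose at least 52.1-fold at day 3 and at least 9.08-fold at day 14 (day difference -2.88, adjusted p = 0.00014).

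The metallothioneins Mt1 and Mt2, small proteins that bind zinc and copper, had the same shape. Mt2 was 7.85, 7.92 and 8.10 in day 3 controls and 11.65, 11.45 and 12 in denervated muscle, then 7.45, 7.38 and 7.28 against 8.18, 8.55 and 8.44. Denervated samples were above controls on both days, but by 13.4-fold at day 3 and 2.03-fold at day 14 (day difference -2.72, adjusted p = 1.7e-05). Mt1 rose 8.23-fold and 1.83-fold (adjusted p = 6.8e-06), from controls of 12.38, 12.33 and 12.33 to 15.45, 15.26 and 15.45 at day 3. The promoter windows printed above hold 6 matches of TGCNCNC in Mt2 and 3 in Mt1. The motif is looser than the metal response core, so not each match need be a core.

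Falls that eased by day 14 included Neu2, a cytosolic sialidase. It went from 12.34, 12.58 and 12.28 to 9.23, 8.41 and 9.28 at day 3, and from 11.78, 12.06 and 12.12 to 11.13, 11.55 and 11.25 at day 14. Denervated samples were below controls on both days, by 10.8-fold and then by only 1.60-fold (day difference 2.75, adjusted p = 6.1e-07). Magix, a PDZ domain protein, went from an 11.9-fold to a 3.09-fold fall (adjusted p = 7.5e-05) and Smtnl1, a smoothelin-like regulator of contraction, from 5.04-fold to 1.35-fold (adjusted p = 4.4e-05). Rsph1, a radial spoke protein of cilia, eased from -4.20 to -2.29 (adjusted p = 0.035), a call that was lost in 8 of 12 fits that left out 1 wild type sample (adjusted p of 0.0326 to 0.0852).

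Some cell division genes were transient rises. Kif23, a kinesin of the dividing cell's midbody, was detected on no day 3 control array, at 5.34, 5.36 and 5.38, and read 8.49, 8.96 and 8.80 in denervated muscle. At day 14 controls were at 6.57, 6.53 and 6.28 and denervated samples at 6.42, 7 and 6.78. The rise was at least 7.56-fold at day 3, while at day 14 the groups overlapped (day difference -3.12 ± 0.41, adjusted p = 5.7e-05). Controls were at least 1.55-fold higher at day 14 (adjusted p = 0.018), and a second, dimmer probe of Kif23 did not share the pattern (day difference 0.36).

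Of 23 measured proliferation genes, 16 rose and 2 fell at day 3 and 7 rose and 2 fell at day 14. The median log2 change was 1.24 and then 0.15. For 8 the day difference was called lower, and 7 genes were transient rises: Birc5, Cdk1, Tyms, Plk1, Top2a, Aurkb and Mcm5. Cdk1, the mitotic kinase, was undetected in the 3 other groups and read 6.48, 7.30 and 7.78 in day 3 denervated muscle, at least 2.56-fold over controls. Top2a, topoisomerase II, rose at least 1.81-fold at day 3 and was undetected in both day 14 groups (day difference adjusted p = 0.0025). Not all of the list did so: Mcm6 (2.39 and 1.95) and Rrm2 (at least 1.54-fold and at least 1.78-fold) were sustained rises and Aurka (-1.51 and -1.64) a sustained fall.

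The transient rise of largest day difference was that of the histone gene H2ac12. Controls read 7.48, 7.47 and 8.25 and denervated samples 10.52, 11.26 and 11.38 at day 3, against 7.68, 7.62 and 7.19 and 7.07, 7.64 and 7.69 at day 14. The groups were well apart at day 3 and overlapped at day 14 (log2 change 3.32 and -0.03, day difference -3.35 ± 0.69, adjusted p = 0.0028). H2ac15, a near-identical copy, gave 2.99 and 0.10, and the array cannot separate the 2 genes with certainty. Angptl4, a secreted inhibitor of lipoprotein lipase, rose by 3.14 at day 3 and stood at 0.10 at day 14 (adjusted p = 0.0035), but a dimmer probe of Angptl4 changed by 0.23 and -0.06.

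Some inflammatory genes were transient rises as well. Of 24 chemokines, alarmins and acute phase genes, 15 rose at day 3 and 6 at day 14, and the median log2 change went from 1.33 to 0.03. In 7 the day difference was called lower: Ccl7, Ccl9, Cxcl14 and Lcn2 were transient, and Orm2, Serpina3n and Slpi rose less at day 14. S100a8, an alarmin of neutrophils and stressed cells, was different. Its level went from 6.75, 6.63 and 6.92 to 10.42, 10.97 and 10.85 at day 3 and from 6.72, 6.33 and 5.34 to 11.62, 12.61 and 12.24 at day 14, above every control on both days (log2 change 3.98 and 6.03, day difference adjusted p = 0.066). Its partner S100a9 was not called on either day (-0.16 and 0.29), nor were the neutrophil markers Retnlg, Csf3r and Camp.

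Macrophage and other leukocyte markers moved with these genes. Of 14 measured, 12 rose at day 3, 4 rose at day 14, and the median log2 change went from 1.34 to 0.26. Their summed log2 level was 13.05 to 13.19 in day 3 controls and 14.93 to 15.16 in denervated muscle, then 12.81 to 13.2 and 13.44 to 14.27 at day 14. Denervated samples were above controls on both days, and the day 3 samples above all others. Markers of T, B and mast cells did not rise: of 6 measured, 0 rose on either day, 2 fell at day 3 and 3 at day 14. Falls were 17.5% and 18.6% of all genes. The summed log2 level of these 6 was 10.02 to 10.44 in day 3 denervated muscle, against 10.69 to 11.08 in controls. At day 14 it was 9.34 to 9.65 against 10.4 to 10.72. Cd52, a leukocyte surface glycoprotein, was 7.59, 8.35 and 8.06 in day 3 denervated muscle and 5.75, 6.29 and 6.01 at day 14 (day difference -2.41, adjusted p = 0.0031), and Lgals3, galectin 3, remained raised (3.70 and 2.46). Of 25 genes of complement, interferon and antigen presentation, 4 rose and 3 fell at day 3 and 1 rose and 8 fell at day 14. Of all genes 20% rose and 17.5% fell at day 3, and 22.9% and 18.6% at day 14, so the day 3 counts were not above those shares. In that list 2, the complement genes C1qb and C1qc, were transient rises. The part of macrophages and other leukocytes in the proliferation and inflammatory results was not tested. Ccl12, a monocyte chemokine, was called a transient rise (2.97 and 0.55, adjusted p = 0.023), but the call was lost in 6 of 12 fits that left out 1 wild type sample (adjusted p of 0.0167 to 0.0612).

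**Figure D2:**
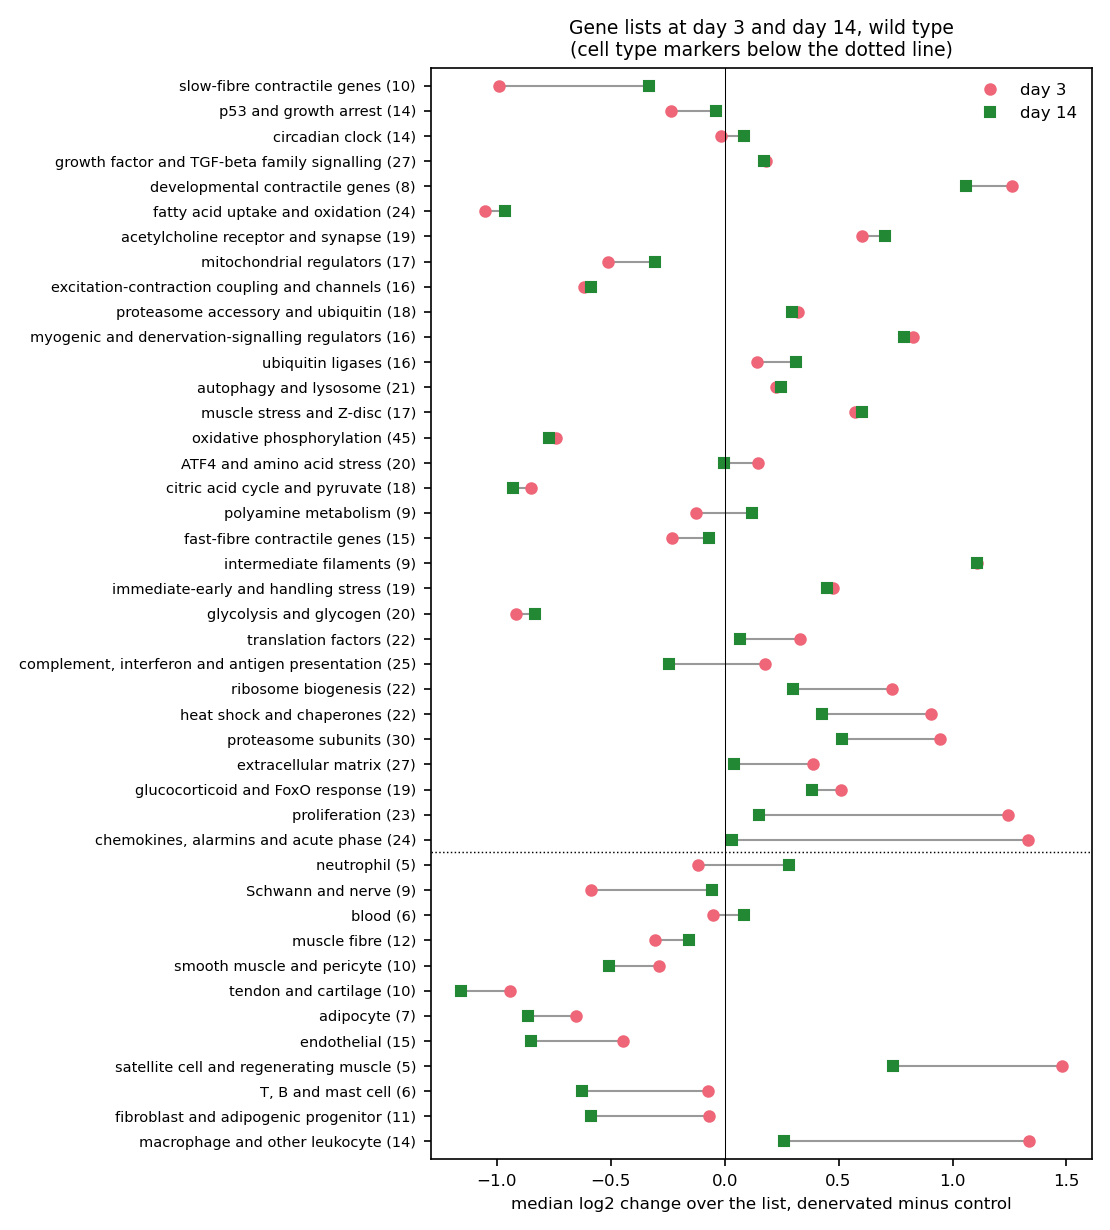
Median log2 change of the measured genes of each list, denervated minus control, at day 3 (circles) and day 14 (squares); the number of genes measured is in brackets and cell type markers stand below the dotted line. Proliferation genes move from 1.24 to 0.15 and chemokines from 1.33 to 0.03, whereas oxidative phosphorylation stays at -0.74 and -0.77.

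Protein breakdown showed different courses in its parts. Of 30 proteasome subunits, 28 rose at day 3, and 17 rose and 1 fell at day 14, with a median log2 change of 0.95 and 0.51. For 9 the day difference was called lower: Psma1, Psma3 and Psma5 were transient, and Psma4, Psma7, Psmb3, Psmd8 and Psmd14 rose less at day 14. The remaining one was Psmd2, a scaffold subunit of the 19S cap, which crossed. Its level was 8.66, 8.85 and 8.57 in day 3 controls and 10.06, 9.40 and 9.59 in denervated muscle, then 9.68, 9.46 and 9.18 against 8.15, 8.12 and 7.98, so that denervated samples lay above all controls at day 3 and below all controls at day 14 (day difference -2.35, adjusted p = 0.00075). Psmd11 (1.71 and 1.45) and Psmc4 (1.20 and 0.84) were sustained. Pomp, the proteasome maturation protein, was stronger at day 14 (0.40 and 0.93, adjusted p = 0.026), but no day difference of its list of 18 accessory and ubiquitin genes was called higher under median centring.

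Ubiquitin ligases did not share a course. Of 16 measured, 4 rose and 2 fell at day 3 and 8 rose and 2 fell at day 14; the day 3 counts were near the shares of all genes, 20% and 17.5%. The day difference was called higher for 4 and, under median centring, for 2. Trim63 was transient, as given above. Fbxo32, atrogin-1, read 12.19, 11.34 and 11.53 in day 3 denervated muscle against 10.24, 10.67 and 10.86, and 10.92, 11.07 and 10.67 against 11.11, 11.40 and 10.03 at day 14. It was above all controls at day 3 and overlapped them at day 14 (1.10 and 0.04), but its day difference of -1.06 was not called (adjusted p = 0.08). Mdm2, the ligase of p53, Nedd4, a ligase of membrane proteins, and Fbxo30, also called MUSA1, were late rises. Mdm2 was 12.23, 11.89 and 11.86 against controls of 11.63, 11.62 and 11.70 at day 3, and 13.03, 12.99 and 13.07 against 11.65, 11.61 and 11.72 at day 14 (day difference 1.03, adjusted p = 0.0035). Fbxo31 and Ubr2 were sustained rises.

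Among 21 autophagy and lysosome genes 8 rose and 3 fell at day 3 and 9 rose and 2 fell at day 14, against 20% and 17.5% of all genes at day 3 and 22.9% and 18.6% at day 14. The receptor Sqstm1 rose by 1.49 and then 0.49 (adjusted p = 0.00098), with its controls 0.62 higher at day 14, and Wipi1 was transient. Ctsd, a lysosomal protease (0.98 and 1.00), Nbr1 and Gabarapl1 were sustained. Of 14 genes of p53 and growth arrest, Cdkn1a, the cell cycle inhibitor p21, and Gadd45a, a DNA damage gene induced in atrophy, were strong sustained rises (3.70 and 4.47, and 3.81 and 4.42). Sesn3, a sestrin, was a late rise along with Mdm2, and Cdkn1c, the inhibitor p57, a transient fall of 1.62 on the log2 scale.

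More genes of protein synthesis and folding rose at day 3 than at day 14, but sustained rises outnumbered transient ones. They were 9 against 3 in ribosome biogenesis, 10 against 3 in chaperones and 7 against 1 in translation factors. Of 22 translation factors 10 rose and 3 fell at day 3, and 7 rose and 5 fell at day 14. In ribosome biogenesis 17 of 22 genes rose at day 3, against 9 rises and 3 falls at day 14 (median 0.73 and 0.30), and the day difference was called lower for 6. Nhp2, a box H/ACA protein, rose by 1.58 and stood at -0.01 at day 14 (adjusted p = 0.00031). Of 22 chaperones 17 rose and 1 fell at day 3 and 10 rose and 2 fell at day 14 (median 0.90 and 0.43), with Pdia3, Pdia6 and Hspa9 transient and Hspa4 sustained (1.95 and 2.08). Pdia6, a disulfide isomerase of the endoplasmic reticulum, read 7.77, 7.85 and 7.83 in day 3 denervated muscle against 6.48, 6.22 and 5.77, and 7.12, 6.51 and 6.42 against 6.97, 7.22 and 7.19 at day 14 (adjusted p = 5.7e-05). In extracellular matrix, 11 of 27 genes rose and 2 fell at day 3, and 6 rose and 4 fell at day 14. Of all genes 20% rose and 17.5% fell at day 3, and 22.9% and 18.6% at day 14. The day 14 count of rises was not above that share. The protease Mmp3 went from 2.99 to 0.61 (adjusted p = 0.00013), and Timp1, an inhibitor of matrix proteases, stayed up (3.70 and 2.78).

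Transient falls included contractile genes of slow and oxidative fibres. Of 10 slow-fibre genes, 8 fell at day 3 and 4 at day 14, and the median log2 change went from -0.99 to -0.33. The day difference was called higher for 4, which were the transient falls Casq2, Actn2 and Mybpc1 and the eased fall Myl2; under median centring 2 of the 4 calls were lost. Myh2, the myosin heavy chain of fast oxidative fibres, was at 14.34, 14.57 and 14.57 in day 3 controls and 13.59, 13.62 and 13.71 in denervated muscle, then 14.02, 14.25 and 14.31 against 14.29, 14.41 and 14.37. Denervated samples were below all controls at day 3 and overlapped them at day 14 (day difference 1.02, adjusted p = 0.00013). Mb, myoglobin, had the same course (-1.05 and 0.30, adjusted p = 0.00016). Mybpc2, the fast myosin binding protein, was instead a late fall, from -0.49 to -2 (adjusted p = 0.0018), and Myh4, the fastest myosin, a sustained fall of 0.59 and 1.01.

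The transient falls with the largest day differences came from several functions. Bdh1, the mitochondrial dehydrogenase of ketone bodies, was 9.54, 9.63 and 9.76 in day 3 controls and 6.46, 6.13 and 6.88 in denervated muscle, then 8.64, 9.63 and 9.48 against 7.87, 8.47 and 8.96, apart at day 3 and overlapping at day 14 (-3.15 and -0.82, day difference 2.33, adjusted p = 0.0026). A second, dimmer probe of Bdh1 changed by only -0.35 and 0.16. Steap3, a ferrireductase, fell by 2.23 and stood at -0.25 (adjusted p = 0.00027), but its dimmer probes gave day differences of 0.20 and 0.57, neither of them called. Abat, the transaminase of the transmitter GABA, fell at least 2.24-fold and stood at 0.42 (adjusted p = 0.00014). Ubap1l, a ubiquitin-binding homologue, fell by 1.71 and stood at 0.47.

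Cops8, a subunit of the COP9 signalosome that trims cullin ligases, had the largest value of the class at 2.85 (adjusted p = 0.0026), but its day 3 denervated samples were 8.16, 8.10 and 10.61, with replicate 3 far from the other 2. Controls of that day read 11.86, 11.90 and 11.87, and all 3 denervated samples lay below them. Thap4, a nitrophorin-fold protein, had the same uneven replicate (9.47, 9.48 and 10.62, against 11.26, 11.51 and 11.28).

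Late rises were, by the sorting, not called at day 3. Whrn, whirlin, a scaffold protein of hair cells and photoreceptors, read 6.50, 6.98 and 6.50 in day 3 controls and 6.91, 6.63 and 6.72 in denervated muscle, then 6.36, 6.30 and 6.47 against 9.34, 9.45 and 9.10 at day 14. The groups overlapped at day 3 and were far apart at day 14, a 7.57-fold rise (day difference 2.83 ± 0.27, adjusted p = 1.1e-06). Kcnk5, a tandem-pore potassium channel, was undetected in the 3 other groups and read 8.25, 8 and 7.96 in day 14 denervated muscle, at least 5.42-fold over controls (adjusted p = 5.3e-05). A day 3 response cannot be read for it, and its second, dimmer probe gave a day difference of 0.40, which was not called. Hamp2, a hepcidin, rose at least 4.23-fold (adjusted p = 0.00021), and at day 3 it was detected on 1 control array and on no denervated array.

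Mfsd7a, a membrane transporter of the major facilitator family, rose 8.05-fold at day 14, and both of its probes agreed (day difference 2.70 and 1.92). Aldh3a1, an aldehyde dehydrogenase, read 9.83, 8.55 and 9.72 in day 14 denervated muscle and 6.29 to 6.69 in the other samples (adjusted p = 0.0016). Fam83d, a protein of the mitotic spindle, rose 5.80-fold at day 14 and had the largest day difference of the late genes, 3.31 (adjusted p = 0.00056). It was detected on 1 array of day 3 denervated muscle.

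**Figure D3:**
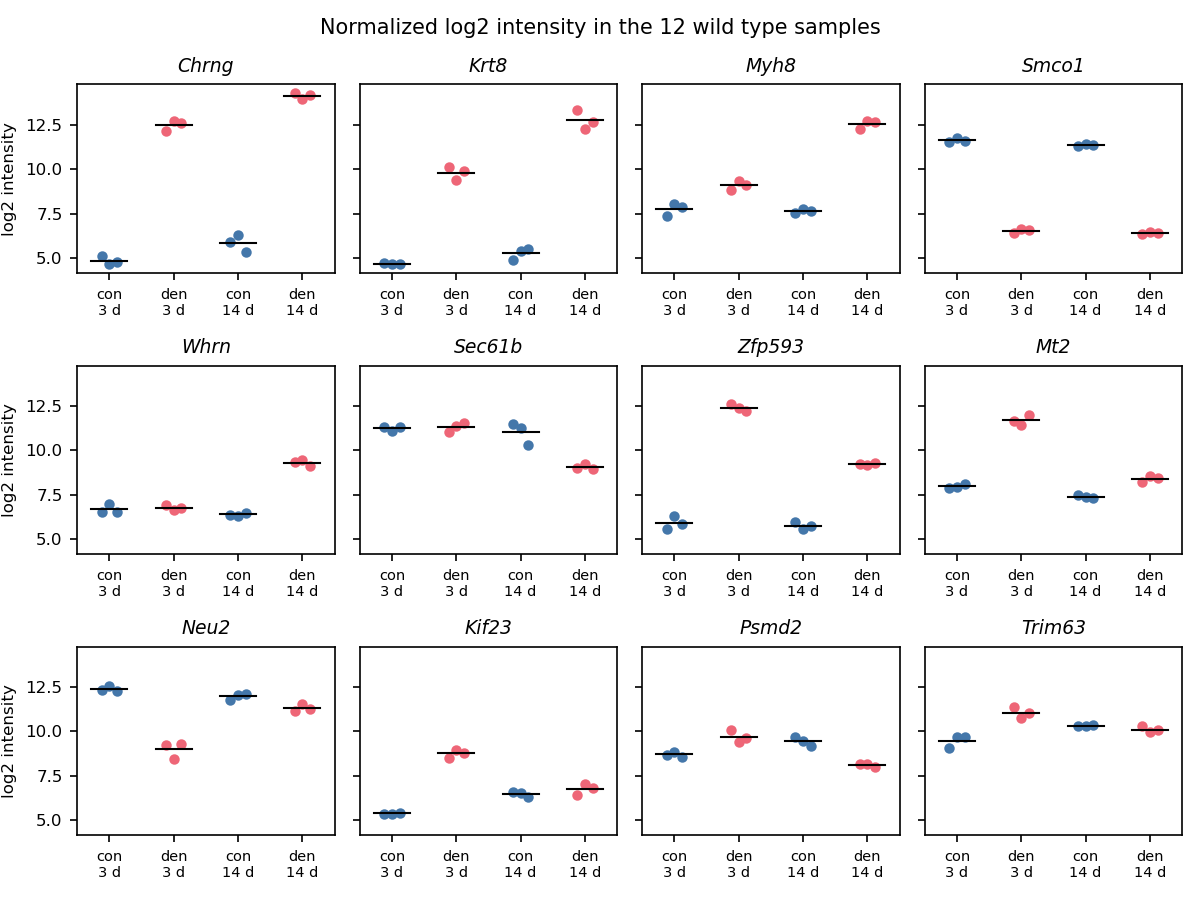
Normalised log2 intensity of 12 genes in the 12 wild type samples; blue points are control (con) and red points denervated (den) muscle at 3 or 14 days, and bars are the means of 3 samples. Chrng and Smco1 hold their change on both days, Kif23 and Trim63 are raised at day 3 only, Whrn at day 14 only, and Psmd2 is above controls at day 3 and below them at day 14.

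Of 27 growth factor and TGF-beta family genes the day difference was called higher for 6 and lower for 2, against 7.46% and 6.2% of all genes. Among the 27, 3 were late rises, 2 were rises that grew and 9 were called in none of the comparisons. Id2, an inhibitor of basic helix-loop-helix factors, rose from controls of 7.24, 7.31 and 6.86 to 9.10, 8.93 and 9.23 at day 14, and its day 3 groups overlapped (day difference 1.88, adjusted p = 0.00035). Fst, the myostatin antagonist follistatin, and Igfbp5, an IGF binding protein, were late rises, and the rises of Tgfb1 (at least 1.35-fold and then 7.62-fold) and Tgfb3 (1.49-fold and 2.74-fold) grew. Gdf5, a BMP ligand that limits denervation atrophy in mice, rose by 3.10 and 3.84 with no day difference called. In the list of 19 glucocorticoid and FoxO response genes the day difference was called higher for 4 and lower for 5, and under median centring for 0 and 6. Foxo1, a transcription factor of atrophy genes, and Sgk1, a kinase that acts on FoxO factors, were late rises of 0.99 and 0.95, and Egr3, an immediate-early factor needed for muscle spindles, a late rise of 2.34 (adjusted p = 5.3e-05). In the clock, Per2 was a late rise and Nr1d1 a transient fall.

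Late falls had metabolic and secretory genes among them. Slc25a25, a mitochondrial carrier of ATP and magnesium, was 8.81, 9.08 and 8.77 in day 3 controls and 9.46, 9.59 and 9.37 in denervated muscle, then 8.66, 8.77 and 7.76 against 6.40, 6.86 and 7.17. Denervated samples were all above controls at day 3 without being called and all below them at day 14 (0.59 and -1.59, day difference -2.18, adjusted p = 0.0011). Adh1, an alcohol dehydrogenase, fell 4.38-fold at day 14, to 7.79, 7.99 and 8.07 from 10.33, 10.30 and 9.61 (adjusted p = 0.0023). Angptl7, a secreted angiopoietin-like protein, was called down at day 14 (log2 change -1.89, day difference -2.55, adjusted p = 0.013).

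Sec61b, a subunit of the channel that passes proteins into the endoplasmic reticulum, fell 3.86-fold at day 14, to 8.99, 9.22 and 8.96, and its 2 probes agreed (day difference -2.02 and -1.82). H13, a signal peptide peptidase, was called as well, but its 7 probes gave day differences from -2.04 to 0.51. Ucp3, a mitochondrial uncoupling protein, had a day difference of -2.56 (adjusted p = 0.035), and this call was lost in 8 of 12 fits that left out 1 wild type sample (adjusted p of 0.0283 to 0.101).

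Crossing genes were few. Besides Psmd2, Vac14, a scaffold of phosphoinositide synthesis, rose by 1.47 at day 3 and fell by 0.86 at day 14. A second, dimmer probe of Vac14 did not share the pattern (-0.51 and -0.08, day difference 0.44). Ifi30, a lysosomal thiol reductase of antigen-presenting cells, went from 1.31 to -0.85, and Nqo1, a quinone reductase induced by oxidative stress, from 0.68 to -1.47, with day 14 denervated samples of 8.54, 8.26 and 8.34 below every other sample. In the other direction Igf2, a foetal growth factor, was 11.27, 11.61 and 11.75 in day 3 controls and 10.78, 11.03 and 11.05 in denervated muscle, then 11.36, 11.47 and 11.72 against 12.74, 13 and 12.95. It was below all controls at day 3 and above all of them at day 14 (-0.59 and 1.38, day difference 1.97 ± 0.20, adjusted p = 2.7e-06). Pbld2 (-1.35 and 1.09), Wfdc2, a secreted protease inhibitor (-0.69 and 1.89), and Itgae, the integrin alpha E (-1.07 and 0.73), did likewise, and controls of all 3 were lower at day 14. Only 1 gene crossed when each change also had to be at least 2-fold.

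The day difference has a denervated and a control part. Denervated muscle changed more between the days than control muscle in 1323 of the 1546 genes with a called day difference (85.6%), and control muscle changed more in 223. Over all genes, 4923 (43.5%) differed between days in denervated muscle, 2839 (25.1%) higher and 2084 (18.4%) lower at day 14. In control muscle 1565 (13.8%) differed, 878 (7.76%) higher and 687 (6.07%) lower, and under median centring 3592 higher and 224 lower. Among genes with a called day difference, 257 (16.6%) were also called between the control groups. The share was 12.31% in transient rises, 18.05% in transient falls, 15.73% in late rises and 23.5% in late falls.

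**Figure D4:**
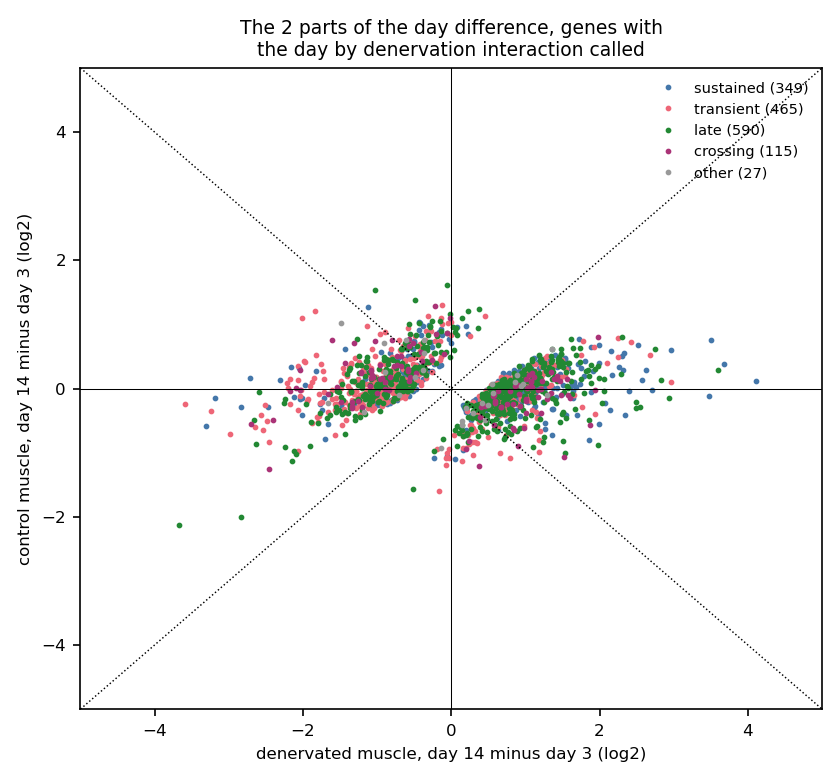
For the 1546 genes with a called day difference, the change from day 3 to day 14 in denervated muscle (horizontal axis, log2) is plotted against the change in control muscle (vertical axis, log2), coloured by class. In 1323 of them the denervated change is the larger of the 2, and those points lie in the left and right sectors between the dotted diagonals.

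Control muscle itself was not the same on the 2 days. Crebbp, a histone acetyltransferase, was 9.88, 9.21 and 9.27 in day 3 controls and 5.14, 5.2 and 5.35 at day 14, where no array detected it (at least 14.1-fold lower), and it was at least 11.3-fold lower in denervated muscle, and its denervation response was not called on either day. Neb, the giant thin-filament protein nebulin, was 10.52, 10.28 and 10.47 in day 3 controls and 7.53, 7.61 and 7.47 at day 14 (log2 difference -2.89), again with no response called. Cep295 was lower by 2.46 on the log2 scale, Gbf1 at least 5.24-fold and Fam98b at least 3.07-fold in day 14 controls, and all 3 were lower in denervated muscle too. The stress gene Gadd45b was lower by 2.32. Pdk4, the fasting-induced kinase of pyruvate dehydrogenase, was higher by 2.07 at day 14 (adjusted p = 0.0014): controls went from 11.13, 10.79 and 11.05 to 13.10, 12.98 and 13.09, and denervated muscle from 12.58, 12.48 and 12.69 to 13.33, 13.84 and 13.15. Its rise of 1.60 at day 3 and 0.38 at day 14 was not a called day difference. Rbm24 and Tns1 were also higher in day 14 controls, by 2.25 and 1.74, as were Castor2, at least 2.84-fold, and Plscr5, at least 2.15-fold. The calls of Rbm24, Pdk4 and Gadd45b were lost when the number of detected probes was a covariate (adjusted p of 0.0975, 0.136 and 0.0575). Ocrl was called too, on controls of 4.34, 7.81 and 8.02 at day 3; without that first sample its difference was 0.68 in place of 1.87 and no longer called.

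The 4 groups of MuRF1 knockout mice gave the same comparison in samples that shared the normalisation, the probe filter, the choice of probe and the estimate of spread with the sorting. There 4055 genes (35.8%) were called at day 3, 4150 (36.7%) at day 14, and the day difference for 2332 (20.6%). Its median was -0.08 over the genes that were transient rises in wild type and 0.04 over transient falls. It was 0.11 over late rises and -0.10 over late falls. The wild type medians of these classes were -1.06, 0.87, 0.90 and -1.01. They are large in part by construction, since a called wild type day difference was required for these classes. The knockout day difference was not used in the sorting. The gap between the medians therefore cannot by itself show that the knockout lost the time course. The knockout day difference had the wild type sign in 58.08% of transient rises, 52.2% of transient falls, 58.15% of late rises and 55.56% of late falls, against 51.86% of all genes. Crossing genes shared the sign in 75.44% of those that rose first and 67.24% of those that fell first. Wild type sustained rises were called up in the knockout at day 3 in 80.03% and at day 14 in 70.72%, against 20.2% and 19% of all genes.

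Of the 3 knockout arrays of day 3 denervated muscle, 2 stood apart in detecting 18434 and 18520 probes, against 17055 on the third. Without these 2 arrays the knockout day difference was called for 219 genes, and the shared sign rose to 73.85% of transient rises, 60% of transient falls, 68.82% of late rises and 69.23% of late falls, against 56.76% of all genes. That group then holds 1 sample, which is assumed to vary like the other groups. With the third array left out instead, the knockout day difference was called for 3274 genes, and the sign was shared in 48.85%, 49.76%, 53.09% and 50.85% of these classes, against 50.3% of all genes. The difference between genotypes in the day difference was called for 1644 genes (14.5%) with all arrays, 976 (8.62%) higher and 668 (5.9%) lower in wild type, and for 99 without the 2. The macrophage and leukocyte markers moved with this: their median day difference was -1.06 in wild type and 0.72 in the knockout with all arrays. Their part in the difference between genotypes was not tested.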

How the data were processed

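Calf muscle RNA was hybridised to Illumina mouse BeadChips, 24 arrays in 8 groups of 3, of which the 12 wild type arrays are described here. The deposited tables hold, per array, probe intensities that were not normalised, summarised by the authors with BeadStudio 3.2.3 per the submitters' processing notes. Each deposited intensity comes with a detection p-value, which BeadStudio sets against negative control beads, per the file headers. The authors' processed intensities, also deposited, served as an alternative. Negative values among them were clipped, and log2 was taken after an offset of 16 was added.

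Intensities were background-corrected and quantile-normalised with neqc (limma 3.58.1, R 4.3.3, offset 16), with the background estimated from the detection p-values. A probe was kept if its detection p was under 0.05 on at least 3 of the 24 arrays, which 21997 of 46632 did. Symbols came from the platform annotation through Entrez identifiers: 29976 probes had 1 symbol, 10 several and 16646 none. The brightest kept probe stood for each of 11317 genes; for 3610 of them more than 1 probe passed. Of the 73 genes named by rule 25 had several, and in 10 a second probe gave a day difference of opposite sign.

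One mean per group was fitted on all 24 arrays (16 residual degrees of freedom), with contrasts tested by eBayes and p-values adjusted by Benjamini-Hochberg over all genes. With 3 arrays a group, precision was limited, and standard errors had a median of 0.1898 (log2) for a change on 1 day and 0.2684 for the day difference. On simulated data 47% of changes of 1 log2 unit and 93% of changes of 2 units in the day difference were recovered, with 8 false calls. The simulation changed 100 genes by each amount among 11317, with no other difference between groups. In the data 13.7% of genes were called, a far larger share, so these rates need not hold for them.

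Named genes were the 6 of largest day difference per direction among transient and late genes whose groups did not overlap, the 6 sustained genes per direction with the largest smaller change, 4 per direction of the weaker, stronger and crossing genes, 6 per direction between control days, Trim63, and any member of a list, with predicted genes passed over. The classes, gene lists and marker lists were chosen with earlier results of these data known. Same-numbered samples did not deviate together (correlations of -0.127 to 0.0292), so replicate numbers were not taken as pairs. Alternatives were the filter, offset, scaling, the processed values, the mean of probes, arrays of 1 genotype, a covariate of detected probes, a replicate block, pooled controls, stricter thresholds and leaving out each array. Chips are not given in the sources used here, so no chip block was run.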

Additional observations from a re-analysis of the deposited data

Results flagged for a closer look

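The denervation response of 1546 genes differed between day 3 and day 14 in wild type muscle, which is the comparison described above. For 25 of 61 named genes the day difference itself also differed between wild type and MuRF1 knockout muscle, by the interaction of day, denervation and genotype in limma. The share over all genes was 14.5%. Most of the 61 were named for a large wild type day difference, which is 1 part of this interaction. An excess of calls over that share therefore follows in part from the choice of genes. The wild type part also stays the same when knockout arrays are left out. All 25 kept their sign without the 2 knockout arrays that detected most probes, but only 4 were still called without them, with day 3 denervated knockout muscle then at 1 sample, assumed to vary like the other groups. Values are wild type minus knockout on the log2 scale, with the adjusted p over all genes and all arrays.

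The 4 were Zfp593 (-2.062, adjusted p = 0.00255), Mt2 (-2.651, adjusted p = 0.00267), Abat (3.013, adjusted p = 0.00162) and Sec61b (-3.867, adjusted p = 0.00148). Without the 2 arrays their adjusted p was 0.0279, 0.0231, 0.0102 and 0.0119. Sec61b had a day difference of -2.02 in wild type and 1.85 in the knockout.

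The transient rises differed by -3.708 for H2ac12, -3.242 for its copy H2ac15, -2.384 for Kif23, -4.187 for Ccl12 and -1.531 for Trim63, which the knockout lacks. The late rises differed by 4.005 for Fam83d, 1.177 for Whrn and 1.604 for Kcnk5, and the late falls by -3.519 for Angptl7, -2.604 for Adh1 and -1.404 for H13. Whrn and Kcnk5 had a day difference above 0 in both genotypes, 1.65 and 1.09 in the knockout.

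Among sustained genes the value was -2.858 for Orm2, 1.317 for Neu2, 1.857 for Fgfbp1, -2.805 for Timp4, -2.31 for Gsn and -1.503 for Ptx3. Among crossing genes it was -2.265 for Psmd2, -2.143 for Vac14, -2.596 for Ifi30 and 1.39 for Pbld2. The adjusted p of these 21 genes ran from 0.00616 to 0.0488 with all arrays and from 0.0522 to 0.294 without the 2.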

How the results depend on the processing

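The balance of directions turned under median centring, from 844 higher and 702 lower day differences to 383 and 902 and from 356 late rises and 234 late falls to 192 and 262. With the mean of probes the day difference was 689 higher and 711 lower. The wild type day difference was called for 1285 to 1897 genes in the fits that kept all arrays of wild type muscle, and leaving out 1 of the 12 arrays gave 1173 to 1424 genes. Transient genes then numbered 346 to 434, late genes 451 to 588, sustained genes 2266 to 2378 and crossing genes 78 to 99. Leaving out 1 array gave 3657 to 3738 calls at day 3, 4092 to 4247 at day 14, 3990 to 4536 between days in denervated muscle and 801 to 1140 in control muscle. It gave 1420 to 3274 for the knockout day difference and 1005 to 2697 for the difference between genotypes, the highest of both without replicate 1 of day 3 denervated knockout muscle. With the 2 other arrays of that group left out, an alternative chosen after seeing the data, these were 219 and 99; that group then holds 1 sample, assumed to vary like the other groups.

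Median centring gave 3816 calls between control days and 4742 for the knockout day difference; a fit of the knockout arrays alone gave 1098 for the latter. With the number of detected probes as a covariate, calls were 2232 between days in denervated muscle, 212 in control muscle, 1084 for the knockout day difference and 812 for the difference between genotypes. Pooling the controls of both days gave 1183 transient, 1715 late and 222 crossing genes. An adjusted p under 0.01 left 217, 303 and 26, and changes of at least 2-fold left 269 transient, 720 sustained, 340 late and 1 crossing gene. The replicate block gave 1476 calls of the day difference, with 447 transient, 2491 sustained and 572 late genes, so it moved no count by over 1.5 times. The cause of these shifts was not tested, apart from the smaller samples and stricter thresholds that define some of them.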

Other observations

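Nerve and satellite cell genes add to the account above. Of 9 measured Schwann cell and nerve markers, 3 rose and 5 fell at day 3 and 1 rose and 3 fell at day 14. Of all genes 20% rose and 17.5% fell at day 3, and 22.9% and 18.6% at day 14. The summed log2 level of the 9 markers was 11.15 to 11.64 in day 3 and 10.73 to 11.12 in day 14 denervated muscle, against 12.13 to 12.23 and 11.7 to 12.15 in controls. Mbp, myelin basic protein, fell by 2.53 and 2.22 on the log2 scale. Of 5 markers of satellite cells and regenerating muscle 4 rose on both days, with a median log2 change of 1.48 and 0.74.

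Of 19 immediate-early genes, which also answer to handling, 9 rose at day 3 and 7 at day 14, with a median log2 change of 0.48 and 0.45. Of 9 genes of polyamine metabolism 3 rose and 2 fell at day 3 and 3 fell at day 14. Both lists stand against rises of 20% and 22.9% and falls of 17.5% and 18.6% of all genes on the 2 days. Of 10 tendon and cartilage markers 2 rose and 6 fell at day 3 and 2 rose and 7 fell at day 14, against falls of 17.5% and 18.6% of all genes; under median centring 3 fell at day 3 and 6 at day 14. Blood markers were called in 1 of 6 on each day.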
